A study of Mus musculus with 7 samples.

Results

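The genes described here are the nuclear-encoded genes of oxidative phosphorylation, taken as the mouse protein-coding genes whose symbols begin with Ndufa, Ndufb, Ndufc, Ndufs, Ndufv, Uqcr, Cox4 to Cox8 or Atp5, together with Sdha, Sdhb, Sdhc, Sdhd and Cyc1. The rule used names alone and no measured value. It found 95 genes among the 42689 genes of the deposited tables: 36 subunit genes of complex I, 8 assembly factors of complex I (Ndufaf1 to Ndufaf8), 4 of complex II, 9 of complex III, 20 of complex IV, 17 of complex V, and Atp5s, a coupling factor that is not a subunit. Ndufa4 and Ndufa4l2 were counted with complex IV, where the NDUFA4 protein is known to reside.

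Oxidative phosphorylation takes place in the inner mitochondrial membrane. Complexes I and II pass electrons from NADH and succinate to ubiquinone, complex III passes them on to cytochrome c, complex IV reduces oxygen, and complex V uses the proton gradient built by complexes I, III and IV to make ATP. Most subunits are encoded in the nucleus and a small core in mitochondrial DNA, so each complex except complex II is built from the products of both genomes. Skeletal muscle is rich in these complexes and uses muscle isoforms of several complex IV subunits, whereas tendon is a tissue of sparse fibroblasts in collagen.

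RNA was sequenced from hindlimb tendon of mice on a C57BL/6 background, taken between the gastrocnemius muscle and the heel bone. The tenotomy group (n = 2) was the cut Achilles tendon site 3 weeks after a dorsal burn and tenotomy of that leg. The contralateral group (n = 3) was the intact leg of mice with the same burn and tenotomy, also at 3 weeks, so its animals carried the burn as well. The uninjured group (n = 2) came from wild-type mice with neither injury. No label states whether the libraries of a group came from separate animals, so p-values measure the spread between these libraries, part of which may be technical. The sample titles fall into 3 runs of numbers whose meaning the labels do not give: the contralateral libraries and tenotomy 1 form the first, tenotomy 2 and uninjured 1 the second, and uninjured 2 stands alone in the third.

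Libraries held between 25926984 and 36724920 estimated counts, of which 5 features took 76.4% to 81.4%. The members together held between 10787 and 57615 counts per library. Levels are given as CPM (estimated counts scaled to a fixed library total after TMM scaling), and per-length levels as the deposited TPM. Both are taken over all features, those 5 included. The uninjured libraries stood apart from each other: the 24 skeletal muscle markers summed to 2704 CPM in uninjured 1 and 18246 CPM in uninjured 2. All 24 were detected in libraries labelled as tendon, and in the contralateral libraries they summed to 1105 to 1235 TPM, against 38.6 to 70.0 TPM for the 12 tendon and fibroblast markers; at the tenotomy site the sums were 102 to 109.8 TPM and 204 to 227 TPM. The tendon transcription factor Scx was low but present, at 0.60, 0.63 and 0.46 CPM in the contralateral, 1.33 and 1.73 CPM in the tenotomy and 0.93 and 0.58 CPM in the uninjured libraries.

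The first comparison asked how the injured tendon site differed from the intact tendon of injured mice. Most genes of each complex fell at the tenotomy site, with exceptions in complexes I and IV and among the complex I assembly factors. Of the 90 members that had enough counts to be tested, 82 fell, none rose and 8 did not pass the test (edgeR quasi-likelihood test on all 7 libraries, Benjamini-Hochberg adjusted p under 0.05 over 16028 features). Among all features tested, 15.4% were called lower and 13.6% higher. The median member had a log2 fold change of -1.97, a 3.91-fold lower level, where the median over all features was -0.00. In 87 of the 90, both tenotomy libraries lay below all 3 contralateral libraries, which held for 31.8% of all features. Their summed levels were 1260, 1640 and 1697 CPM in the contralateral libraries, and 375 and 360 CPM at the tenotomy site.

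**Figure D1:**
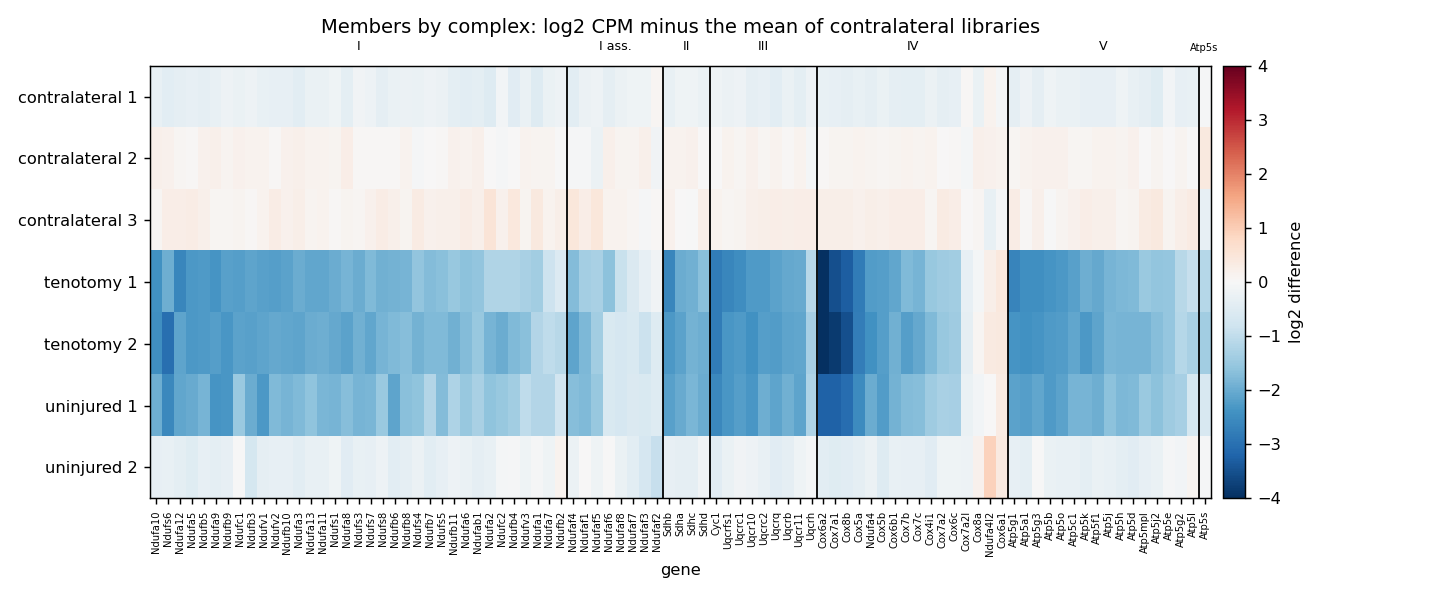
Each column is one of the 90 tested members, of which 1 is not drawn, ordered by complex (I, complex I assembly factors, II, III, IV, V, and Atp5s) and within a complex by change, and each row is a library; colour gives log2 CPM minus the mean of the contralateral libraries, from -4 (dark blue) to 4 (dark red). The tenotomy libraries and uninjured 1 are blue in nearly every column, uninjured 2 is pale, and a few complex IV and assembly factor columns are pale throughout.

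Per length, the order of the members also differed between the groups. In the contralateral libraries the highest mean levels were those of Cox7a1 at 22.5 TPM (19.4, 25.6 and 22.5), Atp5b at 21.6 TPM (21.9, 25.4 and 17.6) and Ndufa4 at 21.6 TPM (18.2, 24.9 and 21.7), which overlapped each other. At the tenotomy site Cox6c, a small subunit of complex IV, was highest at 5.38 and 5.76 TPM, above Atp5mpl at 4.69 and 3.89 TPM and Atp5b at 3.84 and 4.50 TPM. Cox7a1 was there at 1.70 and 1.48 TPM.

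The calls depended on which libraries entered the fit. A fit of the 5 contralateral and tenotomy libraries alone called 85 members lower and 1 higher, where 24.1% and 22.1% of its 16014 features were called lower and higher. Leaving out any one contralateral or tenotomy library left no member called in the fit of the remaining 6, although the median stayed between -1.88 and -2.12. In the fit of the 5 libraries, leaving out a contralateral library gave 82 to 85 members called lower. The shares of all features called in these fits with a library left out are not given here, so the counts cannot be set beside them. Leaving out either tenotomy library there sets 3 libraries against 1, so the count called is not given. That fit takes its spread from the contralateral libraries alone and assumes that the lone tenotomy library varies like them. Within the first run of title numbers, tenotomy 1 differed from the contralateral mean by a median log2 value of -1.87.

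The counts by complex that follow stand beside 15.4% of all features called lower and 31.8% with both tenotomy libraries below all contralateral ones. In complex I, which oxidises NADH, 35 of 36 subunit genes fell, with a median log2 fold change of -1.98. The 7 core subunits, which carry the flavin, the iron-sulfur clusters and the quinone site, had a median of -2.02, and all 7 fell. The 29 supernumerary subunits, which surround that core, ranged from -2.44 to -0.80, and 28 fell. Ndufs1, which holds iron-sulfur clusters of the electron path, was at 27.0, 33.1 and 31.6 CPM in the contralateral libraries and at 7.62 and 7.40 CPM at the tenotomy site. Its log2 fold change was -2.02 ± 0.44 (SE, adjusted p = 0.018), and the groups did not overlap. Ndufv1, which binds NADH through its flavin, went from 12.2, 16.5 and 16.3 CPM to 3.32 and 3.47 CPM, a log2 fold change of -2.14 ± 0.50 (SE, adjusted p = 0.021). Both of these core genes were lower in both tenotomy libraries than in every contralateral library.

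Ndufb2 was the complex I subunit that did not pass. It was at 7.31, 8.31 and 10.1 CPM in the contralateral and 5.82 and 3.97 CPM in the tenotomy libraries, a log2 fold change of -0.80 ± 0.30 (SE, adjusted p = 0.081). When only its protein-coding transcripts were summed, the log2 fold change was -1.64 and it was called lower, so its value depends on which transcripts are counted. The assembly factors, which help to build complex I without being part of it, had a median nearer 0, at -0.94. Of these, 5 of 8 fell (15.4% of all features). All 8 were lower in both tenotomy libraries than in any contralateral library (31.8% of all features). Ndufaf7, a methyltransferase, fell from 1.80, 2.19 and 2.16 CPM to 1.36 and 1.33 CPM. Ndufaf6, Ndufaf3 and Ndufaf2 did not pass, with log2 fold changes of -1.09, -0.56 and -0.30. These genes were scarce: Ndufaf3 had 9 to 22 counts and Ndufaf2 11 to 24 counts per library, which limits what can be detected.

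Complex II, succinate dehydrogenase, has no mitochondrially encoded subunit and also serves the tricarboxylic acid cycle. All 4 of its genes fell, with a median of -1.98. Sdha, the flavoprotein that oxidises succinate, was at 46.9, 59.0 and 53.7 CPM in the contralateral and 13.5 and 12.1 CPM in the tenotomy libraries (log2 fold change -2.06 ± 0.45, SE, adjusted p = 0.018). Sdhb, the iron-sulfur subunit, was at 17.9, 23.9 and 24.6 CPM against 3.59 and 4.47 CPM, a log2 fold change of -2.46. The membrane anchors Sdhc and Sdhd had log2 fold changes of -1.91 and -1.81. For all 4 genes both tenotomy libraries lay below all contralateral libraries, as they did for 31.8% of all features.

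Complex III had the most negative median of the complexes, -2.25, and all 9 of its genes fell; the difference between complexes was not tested. Cyc1, cytochrome c1, which hands electrons to cytochrome c, went from 15.9, 17.9 and 19.8 CPM to 2.58 and 2.53 CPM. That is 6.96-fold lower, with a log2 fold change of -2.80 ± 0.56 (SE, adjusted p = 0.017). Uqcrfs1, the Rieske iron-sulfur protein, went from 17.0, 21.8 and 21 CPM to 3.26 and 3.97 CPM, and Uqcrc1, a core scaffold subunit, from 27.1, 32.9 and 34 CPM to 5.58 and 6.50 CPM. Their log2 fold changes were -2.46 and -2.38. Uqcrh, the hinge protein, had the smallest change of the complex at -1.23.

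Complex V, the ATP synthase, had a median of -1.98, and all 16 tested genes fell, from -2.51 to -1.12. Atp5b, the catalytic beta subunit, was at 126, 162 and 142 CPM in the contralateral libraries and 28 and 29.3 CPM at the tenotomy site. It was 5.00-fold lower (log2 fold change -2.32 ± 0.54, SE, adjusted p = 0.020). Atp5a1, the alpha subunit, was at 114, 143 and 134 CPM against 23.9 and 24.2 CPM, a log2 fold change of -2.44. Neither the alpha nor the beta gene had any overlap between groups.

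Atp5g1, Atp5g2 and Atp5g3 encode the same mature c-ring protein with different import sequences. Atp5g1 went from 15.7, 21.2 and 24.5 CPM to 3.26 and 3.93 CPM, and Atp5g3 from 18.3, 26.4 and 27.3 CPM to 4.32 and 4.6 CPM. Atp5g2 went from 9.18, 12.2 and 13.3 CPM to 5.28 and 5.20 CPM. The log2 fold changes were -2.51, -2.43 and -1.14 for Atp5g1, Atp5g3 and Atp5g2. Per length, Atp5g2 made up 18.8% to 19.6% of the TPM of the 3 genes in the contralateral libraries and 39.6% to 42.0% at the tenotomy site. Its share was 32.2% in uninjured 1 and 19.7% in uninjured 2.

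Complex IV, cytochrome c oxidase, held both extremes of the whole set. Of its 16 tested genes 12 fell and 4 did not pass; the median was -1.98 and the range ran from -4.05 to 0.40. Cox5a, a subunit that binds a thyroid hormone metabolite, went from 16.8, 22.9 and 23.3 CPM to 2.96 and 3.07 CPM, a log2 fold change of -2.80 ± 0.58 (SE, adjusted p = 0.017). Cox4i1, the ubiquitous form of the regulatory subunit IV, went from 21.8, 27.8 and 27.1 CPM to 8.84 and 7.50 CPM, a log2 fold change of -1.65. Cox6b1 fell by 2.02 on the log2 scale. Ndufa4 went from 28.9, 40.0 and 43.7 CPM to 7.78 and 6.83 CPM, a log2 fold change of -2.36. Its paralog Ndufa4l2, known as a target of hypoxia signalling, was at 1.80, 1.82 and 1.33 CPM against 1.90 and 2.10 CPM, a log2 fold change of 0.28 ± 0.28 (SE, adjusted p = 0.49).

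For 3 subunits of complex IV there is a striated muscle form and a ubiquitous form. Cox6a2, Cox7a1 and Cox8b are the forms of heart and skeletal muscle, and Cox6a1, Cox7a2 and Cox8a are the forms of most other tissues. The muscle forms were the members with the most negative changes. Cox6a2 (chromosome 7, 128205435 to 128206387, GRCm38) was at 38.5, 49.3 and 55.9 CPM in the contralateral libraries and 2.96 and 2.80 CPM at the tenotomy site, 16.6-fold lower. Cox7a1 (chromosome 7, 30184144 to 30186078) was at 17.1, 23.0 and 25.4 CPM against 1.88 and 1.5 CPM, 12.9-fold lower. Cox8b (chromosome 7, 140898945 to 140900446) was at 13.5, 19.1 and 20.8 CPM against 1.77 and 1.53 CPM, 10.8-fold lower. Their log2 fold changes were -4.05 ± 0.78, -3.68 ± 0.75 and -3.43 ± 0.70 (SE), each with an adjusted p of 0.017. Without these 3 genes the median over the other 87 members was -1.94, and 79 of them fell.

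The ubiquitous partners did not move as one. Cox6a1 (chromosome 5, 115345642 to 115348981) was at 2.62, 3.02 and 2.66 CPM in the contralateral and 3.70 and 3.63 CPM in the tenotomy libraries. Both tenotomy values lay above all contralateral ones. The log2 fold change of 0.40 ± 0.14 (SE) missed the threshold with all 7 libraries (adjusted p = 0.063) and passed it in the fit of the 5 libraries (adjusted p = 0.029). Cox8a (chromosome 19, 7215153 to 7217616) was at 3.07, 4.18 and 3.83 CPM against 3.48 and 3.83 CPM, and its groups overlapped. Its log2 fold change was -0.02 ± 0.18 (SE, adjusted p = 0.94), and became 0.09 with upper-quartile scaling and 0.14 with library totals. Cox7a2 (chromosome 9, 79755361 to 79759878) fell from 6.86, 8.96 and 11.1 CPM to 3.29 and 3.10 CPM, a log2 fold change of -1.49 ± 0.35 (SE, adjusted p = 0.021). Cox7a2l, a related gene whose product joins complexes III and IV in supercomplexes, was at 7.20, 6.57 and 7.02 CPM against 5.52 and 5.43 CPM. Its log2 fold change of -0.34 ± 0.13 (SE) had an adjusted p of 0.083 with 7 libraries and 0.022 with 5.

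**Figure D2:**
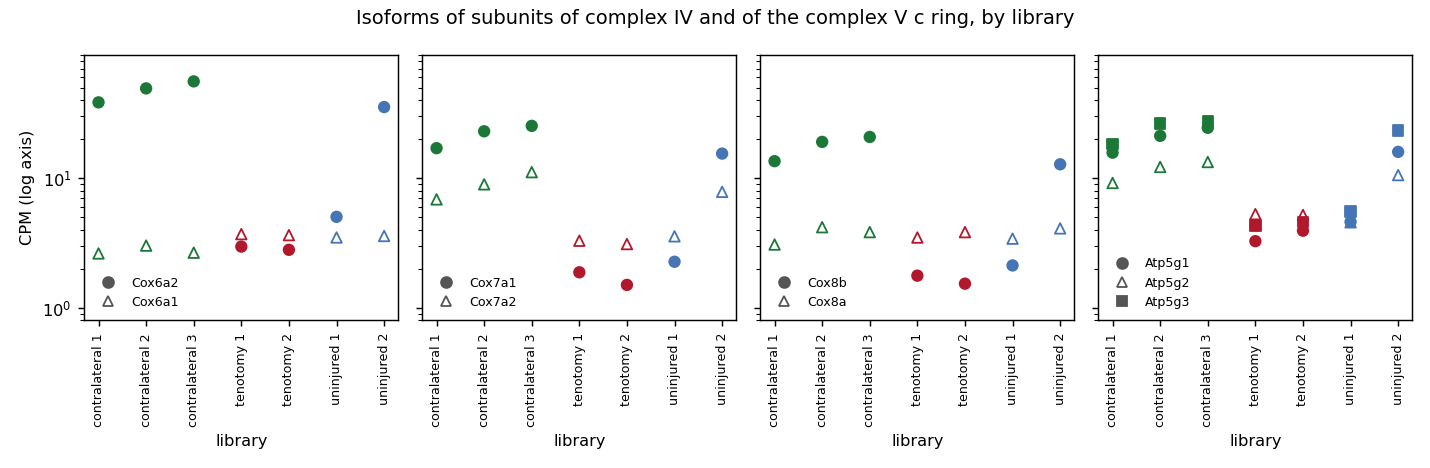
CPM on a log axis in each of the 7 libraries (green contralateral, red tenotomy, blue uninjured) for the isoforms of complex IV subunits 6a, 7a and 8 and for the c-ring genes of complex V; each point is a library. CPM is not corrected for length, so levels are to be read across libraries within a gene: Cox6a2, Cox7a1 and Cox8b are at least 12.8 CPM in the contralateral libraries and uninjured 2 and at most 5.03 CPM in the others, while Cox6a1 and Cox8a stay between 2.62 and 4.18 CPM in all 7.

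Within a library, the log2 ratio of the muscle to the ubiquitous form cancels library scaling, apart from the prior count of 2 added to each form. Cox6a2 over Cox6a1 was 3.84, 4.0 and 4.36 in the contralateral and -0.31 and -0.37 in the tenotomy libraries, a difference of group means of -4.41. Cox8b over Cox8a was 2.12, 2.17 and 2.42 against -0.95 and -1.29, a difference of -3.36. Cox7a1 over Cox7a2 was 1.31, 1.35 and 1.18 against -0.79 and -1.02, a difference of -2.18. In all 3 pairs the groups did not overlap; the exact permutation test, two-sided, gave p = 0.2 for each, the smallest p that 10 splits of 5 libraries allow. Per length, Cox6a2 made up 93.0% ± 1.2 (SD, n = 3) of the TPM of its pair in the contralateral and 38.5% ± 0.61 (SD, n = 2) in the tenotomy libraries. The Cox8b share was 91.2% ± 0.86 (SD, n = 3) against 49.2% ± 4.2 (SD, n = 2), and the Cox7a1 share 90% ± 0.55 (SD, n = 3) against 65.0% ± 2.8 (SD, n = 2). Cox7a1 and Cox8b have effective lengths of only 139 and 137 bases, so their TPM values lean on the length correction.

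Promoter windows of 300 bases (250 before to 50 after the RefSeq start, GRCm38.p6) are shown for Cox8b, Cox8a and Cox6a1, an isoform pair that changed differently and the member with the most positive change, and for Uqcrc1, a member that fell and whose window holds matches to the NRF1 motif. Capitals mark matches, on either strand, to GCGCANGCG (NRF1), CCGGAAG (ETS factors), AAGGTCA (estrogen-related receptors) or CAGCTG (an E-box read by myogenic factors); these motifs are background knowledge, and a match is a run of letters rather than a measured site. The windows lie at chr7:140900397-140900696 on the minus strand for Cox8b, at chr19:7217567-7217866 on the minus strand for Cox8a, at chr5:115348909-115349208 on the minus strand for Cox6a1 and at chr9:108936398-108936697 on the plus strand for Uqcrc1.
Cox8b: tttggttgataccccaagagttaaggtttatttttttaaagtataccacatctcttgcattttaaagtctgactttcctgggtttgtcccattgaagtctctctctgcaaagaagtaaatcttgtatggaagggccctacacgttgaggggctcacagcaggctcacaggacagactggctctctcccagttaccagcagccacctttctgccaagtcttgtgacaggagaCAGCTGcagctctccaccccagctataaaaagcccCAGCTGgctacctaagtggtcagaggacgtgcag
Cox8a: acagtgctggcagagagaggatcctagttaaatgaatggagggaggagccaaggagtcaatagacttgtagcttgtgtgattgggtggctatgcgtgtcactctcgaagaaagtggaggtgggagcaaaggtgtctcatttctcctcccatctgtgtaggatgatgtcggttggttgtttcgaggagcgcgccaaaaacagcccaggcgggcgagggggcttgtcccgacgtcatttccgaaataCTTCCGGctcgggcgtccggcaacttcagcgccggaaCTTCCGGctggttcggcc
Cox6a1: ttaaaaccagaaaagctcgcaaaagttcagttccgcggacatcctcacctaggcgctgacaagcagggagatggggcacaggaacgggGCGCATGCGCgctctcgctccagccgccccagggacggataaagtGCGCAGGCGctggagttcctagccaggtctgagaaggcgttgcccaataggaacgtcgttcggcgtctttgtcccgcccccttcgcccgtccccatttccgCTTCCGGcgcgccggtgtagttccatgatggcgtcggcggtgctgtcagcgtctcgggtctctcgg
Uqcrc1: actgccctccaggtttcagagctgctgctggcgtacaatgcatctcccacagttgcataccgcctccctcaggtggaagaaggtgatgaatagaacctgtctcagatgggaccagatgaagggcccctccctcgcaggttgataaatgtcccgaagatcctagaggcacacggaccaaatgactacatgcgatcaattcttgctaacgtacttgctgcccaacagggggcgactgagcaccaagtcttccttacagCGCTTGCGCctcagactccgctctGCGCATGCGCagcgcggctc

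The Cox8b window held 2 E-box matches and none of the other motifs, and the Cox8a window 2 ETS matches. The Cox6a1 window held 3 NRF1 matches and 1 ETS match, and the Uqcrc1 window 3 NRF1 matches. In each of these NRF1 sets, 2 matches overlap on opposite strands. The windows of Cox7a1, Cox7a2 and Cox7a2l held none of the 4 motifs. RefSeq windows were matched for 74 of the 90 tested members (79 windows), with Cox6a2 and Cyc1 among those not matched. The NRF1 motif was in 29.1% of member windows and 6.25% of all 32851 windows, the ETS motif in 22.8% and 8.86%, the estrogen-related receptor motif in 10.1% and 4.72%, and the E-box in 7.59% and 16.3%. Among members called lower, 22 of 73 windows held the NRF1 motif, and among tested members not called, 1 of 6 did, which is Cox6a1. A window without a match says only that these letters are not in it.

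The remaining 5 members did not pass the filter on low counts. Cox4i2, the lung and hypoxia form of subunit IV, reached 9 counts in its highest library, Cox6b2, a testis form, 6 counts, and Cox7b2 1 count. Cox8c and a second gene annotated as Atp5o had 0 counts in every library, which allows up to 0.0816 to 0.112 CPM depending on the library. These limits and those of other low values cover counting error only. Atp5s, outside the complexes, fell by 1.28 on the log2 scale.

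Other genes of the pathway were counted from lists of their own, beside 15.4% of all features called lower and 13.6% called higher. All 13 mitochondrially encoded subunit genes fell, with a median of -2.56; mt-Co1, the catalytic subunit of complex IV, was at 3073, 4013 and 4352 CPM against 575 and 581 CPM. All 16 genes of the tricarboxylic acid cycle and pyruvate dehydrogenase fell, with a median of -2.23, including Idh3a, a subunit of isocitrate dehydrogenase, at -2.60. Among mobile electron carriers and ubiquinone synthesis, 12 of 14 fell, including Coq8a at -3.47 and the cytochrome c gene Cycs at -2.40; the testis cytochrome c gene Cyct had 0 counts. Of the assembly factors of complexes II to V and further complex I factors, 22 of 37 fell and none rose, with a median of -0.91, close to the -0.94 of Ndufaf1 to Ndufaf8. Among carriers of ATP, ADP and phosphate, the Vdac channels and the mitochondrial creatine kinase Ckmt2, 6 of 7 tested genes fell. Ckmt2, the creatine kinase of striated muscle mitochondria, had the most negative value at -4.52, while Slc25a5, the adenine nucleotide carrier of many non-muscle cells, was not called at 0.10.

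Among 15 transcriptional regulators of mitochondrial genes, 10 fell and 1 rose, where 15.4% and 13.6% of all features did. Esrrb and Esrrg, estrogen-related receptors, had log2 fold changes of -4.02 ± 0.72 and -3.71 ± 0.69 (SE). Perm1, a muscle regulator of the same pathway, was at -3.42, and the coactivator Ppargc1b at -2.95. Esrrb was scarce, at 1.16, 1.54 and 1.86 CPM in the contralateral and 0.082 and 0.10 CPM in the tenotomy libraries. Its tenotomy values were no higher than 0 counts would allow, so the size of its change is uncertain. Ppargc1a, a coactivator of mitochondrial biogenesis, was at 7.20, 7.40 and 6.99 CPM in the contralateral and 1.20 and 1.23 CPM in the tenotomy libraries. Pprc1, a relative of it, rose from 2.40, 2.39 and 3.18 CPM to 3.94 and 4.10 CPM, a log2 fold change of 0.59 ± 0.17 (SE, adjusted p = 0.037). Nrf1 and Gabpa, whose motifs were searched above, were not called, at 0.25 and -0.41.

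**Figure D3:**
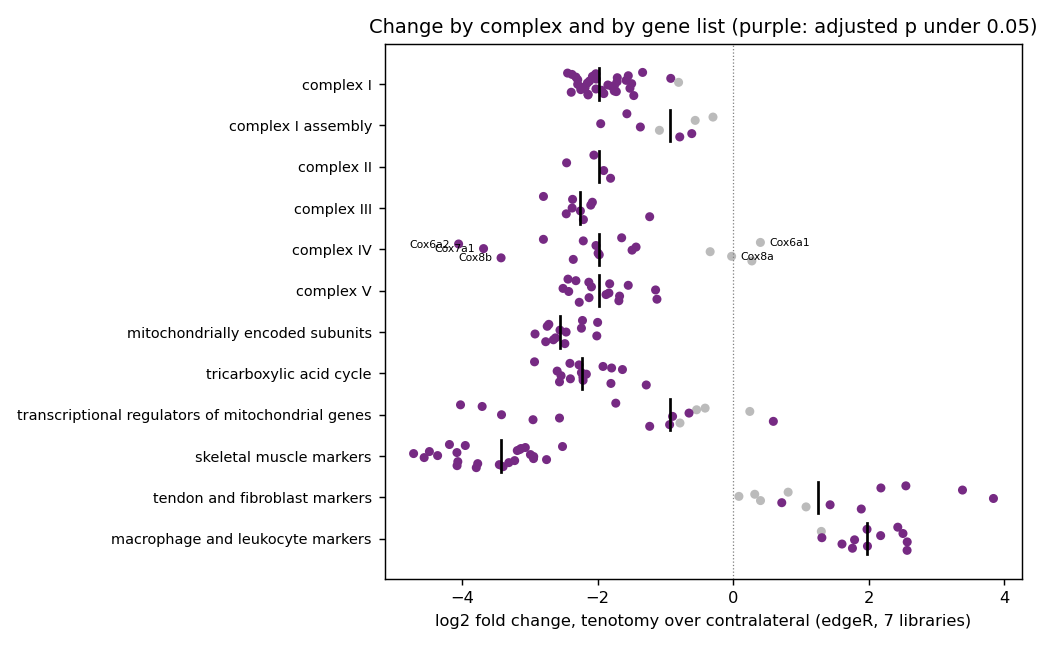
Log2 fold change of tenotomy over contralateral from the fit of 7 libraries for each tested gene, grouped by complex and by gene list; purple points have an adjusted p under 0.05, grey points do not, and black bars are medians. The medians of complexes I to V lie between -2.25 and -1.98, those of the muscle markers at -3.42 and of the macrophage markers at 1.98, and Cox6a1 and Cox8a stand near 0.

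Markers of several other cell types differed in this comparison, where 15.4% of all features were called lower and 13.6% higher. The 24 skeletal muscle markers all fell, with a median of -3.42 and no marker at 0 in any group, and their summed level was 2107 to 2119 CPM at the tenotomy site. Adipocyte markers fell in 4 of 8 (median -1.40), and the brown adipocyte gene Ucp1 was at 0 counts in every library, with 1 of 2 tested genes of that list higher. Macrophage and leukocyte markers rose in 11 of 12 (summed 36.7 to 45.7 CPM in the contralateral and 166 to 169 CPM in the tenotomy libraries), tendon and fibroblast markers in 7 of 12 (7125 to 7128 CPM at the tenotomy site) and cartilage markers in 7 of 8. Erythroid markers rose in 2 of 5 and proliferation markers in 4 of 7. Endothelial markers fell in 1 of 6, near the share of all features, with a median of -0.06. In bulk tissue, fewer cells of a type and less RNA per cell cannot be told apart, and the part of these cell types in the members' values was not tested.

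The ratio of member to muscle marker levels was higher at the tenotomy site. Summed member CPM was 5.19%, 6.55% and 6.29% of summed muscle marker CPM in the contralateral libraries and 17.8% and 17.0% at the tenotomy site. The mean log2 CPM of members minus that of muscle markers was -5.20, -5.0 and -5.04 against -3.28 and -3.36. The groups did not overlap on either measure. Uninjured 1, at 15.1% and -3.59, lay near the tenotomy libraries, and uninjured 2, at 6.79% and -4.91, near the contralateral ones.

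**Figure D4:**
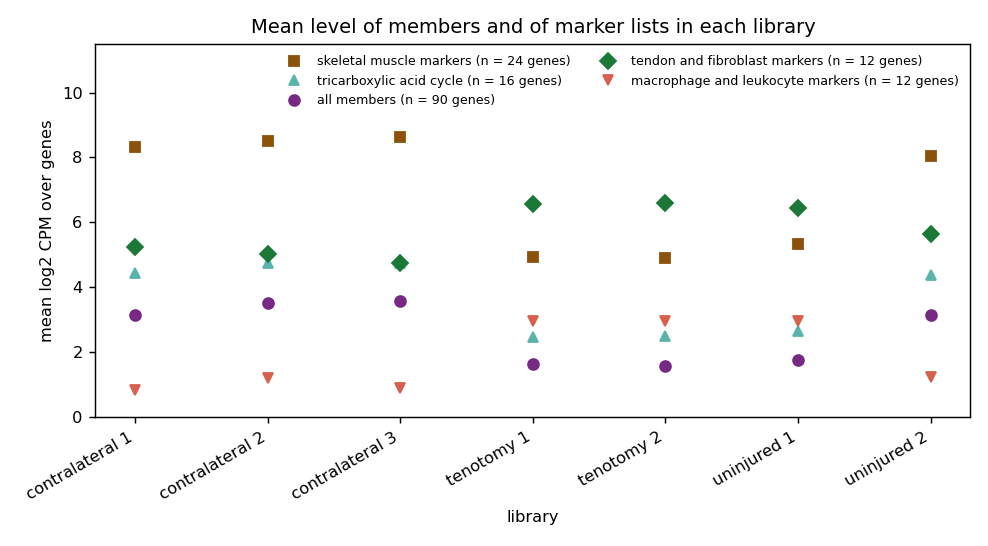
Mean log2 CPM over the genes of each list in each of the 7 libraries: members, muscle markers, tricarboxylic acid cycle genes, tendon and fibroblast markers, and macrophage and leukocyte markers. Member means are 3.13 to 3.58 in the contralateral libraries, 1.64 and 1.56 in the tenotomy libraries, 1.75 in uninjured 1 and 3.14 in uninjured 2; muscle and tricarboxylic acid cycle genes are high and low in the same libraries, and macrophage markers the reverse.

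The uninjured libraries were compared with each other as single libraries, without a test. The members were lower in uninjured 1 than in uninjured 2 by a median of 2.69-fold (log2 ratio -1.43). More than 2-fold lower were 73 of 90 members, against 10.4% of all features, none was more than 2-fold higher, against 9.64%, and 17 were within 2-fold. Uninjured 1 lay below all contralateral libraries for 87 of 90 members (37.9% of all features), and uninjured 2 for 43 of 90 (29.6%). Uninjured 1 was nearer the tenotomy mean for 89 of 90 members (74.4% of all features), and uninjured 2 nearer the contralateral mean for 84 of 90 (70% of all features). Against the tenotomy libraries themselves, uninjured 1 was above both for 56 members (36.6% of all features), between them for 21 (27.8%) and below both for 13 (35.6%).

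The muscle isoforms were again the members with the most negative values. Cox6a2 was at 5.03 CPM in uninjured 1 and 35.4 CPM in uninjured 2, 6.96-fold apart, Cox7a1 at 2.26 and 15.5 CPM, 6.68-fold apart, and Cox8b at 2.12 and 12.8 CPM, 5.89-fold apart. Cox6a1 was at 3.49 and 3.58 CPM and Cox8a at 3.41 and 4.09 CPM. The Cox6a2 share of pair TPM was 53.5% in uninjured 1 and 88.6% in uninjured 2, the Cox7a1 share 69.3% and 87.9%, and the Cox8b share 57.2% and 87.3%. By complex the median log2 ratio was -1.38 for I, -1.72 for II, -1.92 for III, -1.37 for IV and -1.42 for V, and -0.46 for the complex I assembly factors. Ndufaf2 and Ndufaf3 were the members with a higher value in uninjured 1, at log2 ratios of 0.36 and 0.053, both at low counts.

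Across the 90 members, the log2 ratio of uninjured 1 over uninjured 2 and the log2 fold change of tenotomy over contralateral had a Pearson r of 0.897. Across all 16028 features r was 0.768. These comparisons have no library in common, though the TMM scaling was set on all 7 together. Markers of several cell types differed between the uninjured libraries too. The muscle markers were lower by more than 2-fold in uninjured 1 in 24 of 24 and the adipocyte markers in 8 of 8. Summed levels in uninjured 1 and uninjured 2 were 89.1 and 246 CPM for adipocyte, 167 and 45.0 CPM for macrophage and leukocyte, 180 and 27.9 CPM for cartilage, 15.2 and 4.82 CPM for proliferation, and 6521 and 4537 CPM for tendon and fibroblast markers. The part of these cell types in the relation was not tested. Without the 3 muscle isoforms r was 0.873 over 87 members. The points are genes, not replicates.

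**Figure D5:**
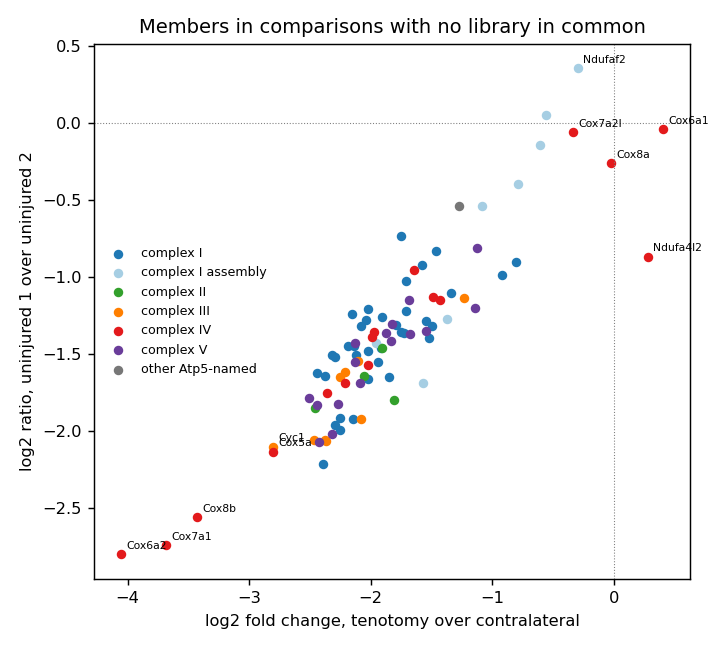
Each point is one of the 90 tested members, coloured by complex, with the log2 fold change of tenotomy over contralateral on the x axis and the log2 ratio of uninjured 1 over uninjured 2 on the y axis. Most points lie along a rising line, with Cox6a2, Cox7a1 and Cox8b lowest on both axes and Cox6a1, Cox7a2l and Ndufaf2 near 0 on both.

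Tenotomy was also set against the uninjured group. No member passed the adjusted threshold with edgeR, as was true of all features (0% called), nor with limma-voom. At an unadjusted p under 0.05, 52 of 90 members were lower (7.59% of all features) and none higher (3.27%), with a median log2 fold change of -1.07. DESeq2, which gave an adjusted p for 57 of the members, called 5 lower, namely Cox6a2, Cox7a1, Cox8b, Ndufa10 and Ndufc1, where 4.7% of its features were called lower. The most negative values were -2.81 for Cox6a2, -2.39 for Cox7a1, -2.17 for Cox8b, -1.73 for Cox5a and -1.70 for Atp5g3. The most positive were 0.40 for Ndufaf2, 0.08 for Ndufaf3 and 0.05 for Cox6a1, followed by Cox8a at -0.04 and Ndufaf7 at -0.10. Markers of other cell types differed in this comparison as well, with none of them called: the median log2 fold change was -2.31 over 24 muscle, -0.91 over 8 adipocyte, 2.09 over 8 cartilage, 0.64 over 12 macrophage and leukocyte, 0.60 over 7 proliferation and 0.36 over 12 tendon and fibroblast markers. Their part in the members' values was not tested. The values changed with the uninjured library used: the members' median was -1.62 without uninjured 1 and -0.13 without uninjured 2. Those fits called 80 members lower (13.7% of features) and none, respectively, but each has 1 uninjured library, which is assumed to vary like the contralateral and tenotomy libraries that give the spread. Within the second run of title numbers, tenotomy 2 differed from uninjured 1 by a median log2 value of -0.19.

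Contralateral against uninjured tested whether the intact leg of injured mice differed from legs of mice without injury. Again no member passed with edgeR (0% of all features) or limma-voom. At an unadjusted p under 0.05, 21 of 90 members were higher in the contralateral group (8.72% of all features) and 1, Cox6a1, was lower (10.5%); the median was 0.87. DESeq2 called Ndufb3 alone, higher in the contralateral group at 1.21 (1.27% of its features). The most positive values were 1.30 for Cox7a1, 1.25 for Cox8b, 1.24 for Cox6a2 and 1.21 for Ndufb3, and the most negative -0.52 for Ndufa4l2 and -0.35 for Cox6a1. Of the marker lists, none with a called gene, the medians were 1.19 for muscle, 0.55 for adipocyte, -2.10 for cartilage, -1.43 for macrophage and leukocyte, -0.93 for proliferation and -0.59 for tendon and fibroblast markers, and their part was not tested. The members' median was 1.80 without uninjured 2 and 0.32 without uninjured 1. Those fits called 80 members higher (16.9% of features) and none, again with 1 uninjured library and a spread from the other groups. With the runs of title numbers as a covariate, 60 were called higher (8.39%) with a median of 1.70. That fit leaves uninjured 2 out of the comparison, reaches uninjured 1 through the tenotomy libraries and takes its spread from the contralateral libraries alone. No run of title numbers holds both of these groups, so no value within a run can be given.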

How the data were processed

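Total RNA was extracted with Trizol and a column and made into TruSeq libraries, per the labels' protocols, and the submitters' processing notes name FastQC 0.11.4 and kallisto. Those notes name the human build GRCh38, while the transcript identifiers in the files are mouse; the transcript reference used is not given in the sources used here. The authors deposited, per library and transcript, estimated counts that need not be whole and TPM, with transcript lengths, per the file headers. Of 103639 transcripts listed, 101510 were matched to GENCODE M21 (GRCm38) by identifier without version, and estimated counts were summed per gene and rounded; 2129 unmatched transcripts stayed as features of their own. Estimated counts split reads between similar sequences: 11 pseudogenes with matching symbols, left out here, held 0.209% as many counts as the members.

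Groups came from the labels; replicate numbers are in accession order and pair nothing. Features were filtered with filterByExpr (minimum count 10), scaled by TMM and tested with edgeR 4.0.16 in R 4.3.3, with 3 group means over all 7 libraries and Benjamini-Hochberg adjustment at 0.05 over 16028 features. Log2 CPM used a prior count of 2. Ratios of isoforms were compared with scipy 1.17.1. The fit was also run on simulated counts in which 200 features changed by 2 on the log2 scale in tenotomy alone. Its outcome is not reported here. The uninjured libraries shared their means in that simulation, unlike in these data, so it cannot speak to such a difference. Totals of 25926984 to 36724920 counts, with most on 5 features, limit precision for members under about 10 counts. DESeq2 1.42.0 and limma 3.58.1 (voom) were alternatives, with other scalings, filters, units and left-out libraries; leaving out libraries in the fit of the contralateral and tenotomy groups alone was added after seeing the data.

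The members, gene lists and tests were chosen with earlier results of these data known. Named genes were core subunits, isoform sets, the 5 most positive and 5 most negative members of each comparison, and members removed by the filter; of other lists, up to 4 genes with the largest change. Genes named outside this rule (Uqcrh, Cox6c, Atp5mpl, Ndufa10, Ndufc1, Ndufaf6, Atp5s, Scx, mt-Co1, Cycs, Cyct, Slc25a5, Ppargc1a, Pprc1, Nrf1, Gabpa, Ucp1) were chosen after their values were seen. Promoter windows are from RefSeq (GRCm38.p6); protein sequences were not used here. Values of some named genes are not reported here.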

Additional observations from a re-analysis of the deposited data

How the results depend on the processing

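No paired analysis was possible because replicate numbers came from accession order and the labels pair no samples. For tenotomy against contralateral, 76 to 85 members were called lower under the planned scalings, tests, filters, units and covariate, while leaving out 1 library at a time gave 0 to 85, with 0 on leaving out any contralateral or tenotomy library. The covariate fit, counted in the 76 to 85, compares tenotomy 1 alone with the contralateral libraries. It takes its spread from those libraries, so its count cannot show how tenotomy libraries vary. Every fit with 1 library left out has fewer residual degrees of freedom, also those without an uninjured library, and the cause of the differences was not tested. For this comparison 15.4% of all features were called lower in the main fit and 24.1% with only the 2 groups compared. Those shares are not given here for the other settings. The count called higher was 1, Cox6a1, with upper-quartile scaling, with library totals, with a minimum count of 50 and with only the 2 groups compared, and 0 to 1 on leaving out libraries, where the fits of only the 2 groups compared were added after seeing the data. Upper-quartile scaling and library totals moved the median of all features by 0.11 and 0.15 log2 units, and the members' median from -1.97 to -1.85 and -1.80. For tenotomy against uninjured, DESeq2 called 5 lower, leaving out libraries gave 0 to 80 and medians from -1.62 to -0.13, and the title-number covariate gave a median of -0.19. For contralateral against uninjured, DESeq2 and no filter on low counts each called 1 higher, the covariate called 60 with a median of 1.70, and leaving out libraries gave 0 to 80 and medians from 0.32 to 1.80.

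Some named members changed sign, most of them with values near 0. Not near 0 in the fit of 7 libraries were Uqcrfs1 at -1.51, Ndufv1 at -1.11, Sdhd at -1.0 and Atp5g2 at -0.53 in tenotomy over uninjured, which turned positive under the title-number covariate, the last 3 also without uninjured 2, and Ndufa4l2 at -0.52 in contralateral over uninjured, which turned positive under the covariate. Ndufaf2, the most positive member in tenotomy over uninjured at 0.40, also changed sign under the covariate, to -0.00886. The covariate fits and those without an uninjured library compare with 1 uninjured library. Tenotomy over contralateral was, for Cox8a, 0.093 (upper quartile), 0.14 (library totals), 0.025 (minimum count 50), 0.000411 (protein-coding transcripts only) and -0.14 to 0.074 on leaving out libraries. Tenotomy over uninjured under the title-number covariate was 0.19 for Atp5g2, 0.17 for Cox8a, 0.34 for Ndufa4l2, -0.00886 for Ndufaf2, -0.26 for Ndufaf3, 0.20 for Ndufv1, 0.022 for Sdhd and 0.00499 for Uqcrfs1. With library totals it was 0.018 for Cox7a2l, 0.10 for Cox8a and 0.041 for Ndufaf7. On leaving out libraries it ran from -1.01 to 0.20 for Atp5g2, -0.16 to 0.098 for Cox8a, -0.61 to 0.27 for Ndufa4l2, -0.22 to 0.30 for Ndufaf3, -1.77 to 0.17 for Ndufv1 and -1.63 to 0.19 for Sdhd. Contralateral over uninjured was 0.015 for Cox8a with length-scaled TPM, 0.26 for Cox8a and 0.14 for Ndufa4l2 under the covariate, and on leaving out libraries -0.14 to 0.13 for Cox8a and -0.13 to 0.77 for Ndufb2. The cause was not tested.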
